A study of Mus musculus with 6 samples.

Results

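The 10 genes described here belong to the circadian clock, the feedback loop of transcription factors that keeps daily time in most cells. They are Arntl (also called Bmal1), Clock, Npas2, Dbp, Tef, Nr1d1, Nr1d2, Per1, Per2 and Per3, chosen by name, and all 10 were found among the 30462 genes of the deposited table. The RNA came from the cochlea, the part of the inner ear that senses sound, of mice at postnatal day 7. Of the 6 libraries, 3 carry the genotype label NEU4 KO (replicates 2, 4 and 5) and 3 the label WT (replicates 3, 4 and 5). The Neu4 product is a neuraminidase, which trims sialic acid off sugar chains. The sources used here give no strain, Neu4 allele, sex, pooling of animals, light cycle or hour of collection. Whether each sample is a separate animal is not labelled, so p-values measure only the spread between these samples.

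In the clock loop, ARNTL pairs with CLOCK or with its relative NPAS2, and the pairs switch on genes through a short DNA element called the E-box. Their targets include the Per and Cry genes, whose proteins shut the pairs down, and Nr1d1 and Nr1d2, which encode the REV-ERB receptors that repress Arntl and Npas2 through another element, the RORE. Dbp, Tef and their relative Hlf encode activators of the PAR bZIP family that act on D-box elements, where the repressor NFIL3 competes with them. In adult tissues Arntl RNA peaks at about the opposite time of day to Dbp and Nr1d1, and the cochlea is known to hold such a clock.

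Library totals recovered from the values were 15170973 to 17192293 fragments. Neu4 itself was at 4 to 8 fragments per library in each group, so its RNA gave no check of the genotype, and knockout here means a library labelled so. Markers of the cochlea were present, with summed levels of 8 hair cell genes of 24.6 to 29.8 FPKM (fragments scaled by exon length and library total) over the libraries, although the outer hair cell gene Slc26a5 was listed at 0 in knockout 4. By the Y-linked gene Ddx3y, knockout 2 and wild types 3 and 4 were male and the other libraries female. Markers of surrounding tissue differed widely between libraries. The sum of 10 skeletal muscle genes was 67.3 FPKM in knockout 4 and 695 in wild type 5, with the others between 170 and 304, and the sum of 8 middle ear epithelium genes was 2.74 to 96.7 in the knockout libraries and 384 to 728 in wild type. In whole tissue, fewer cells of a type and less RNA per cell cannot be told apart.

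None of the 10 clock genes passed the test between the groups by limma on log2(FPKM + 1) with Benjamini-Hochberg adjustment over the 14072 genes tested, where 0.334% of genes were called at an adjusted p under 0.05 (0.128% higher and 0.206% lower in knockout). All 10 passed the filter on low values. At an unadjusted p under 0.05 there were 4, Nr1d2, Per3, Dbp and Tef, each higher in the knockout libraries, beside 17.6% of all tested genes (10.6% higher and 6.99% lower). The values of the groups did not overlap for 5 of the 10, these 4 and Arntl, which was lower in knockout, beside 24.8% of all tested genes (15.2% higher and 9.54% lower). The log2 fold changes of the 10 had a median of -0.01 and ran from -0.14 to 0.33, beside a median of 0.02 over all tested genes. They were above 0 for 5 of the 10, beside 56.9% of all tested genes. With voom on recovered fragments, Nr1d2 alone of the 10 was called (log2 0.39, adjusted p = 0.0298), beside 2.76% of the 13796 genes tested that way (1.57% higher).

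**Figure D1:**
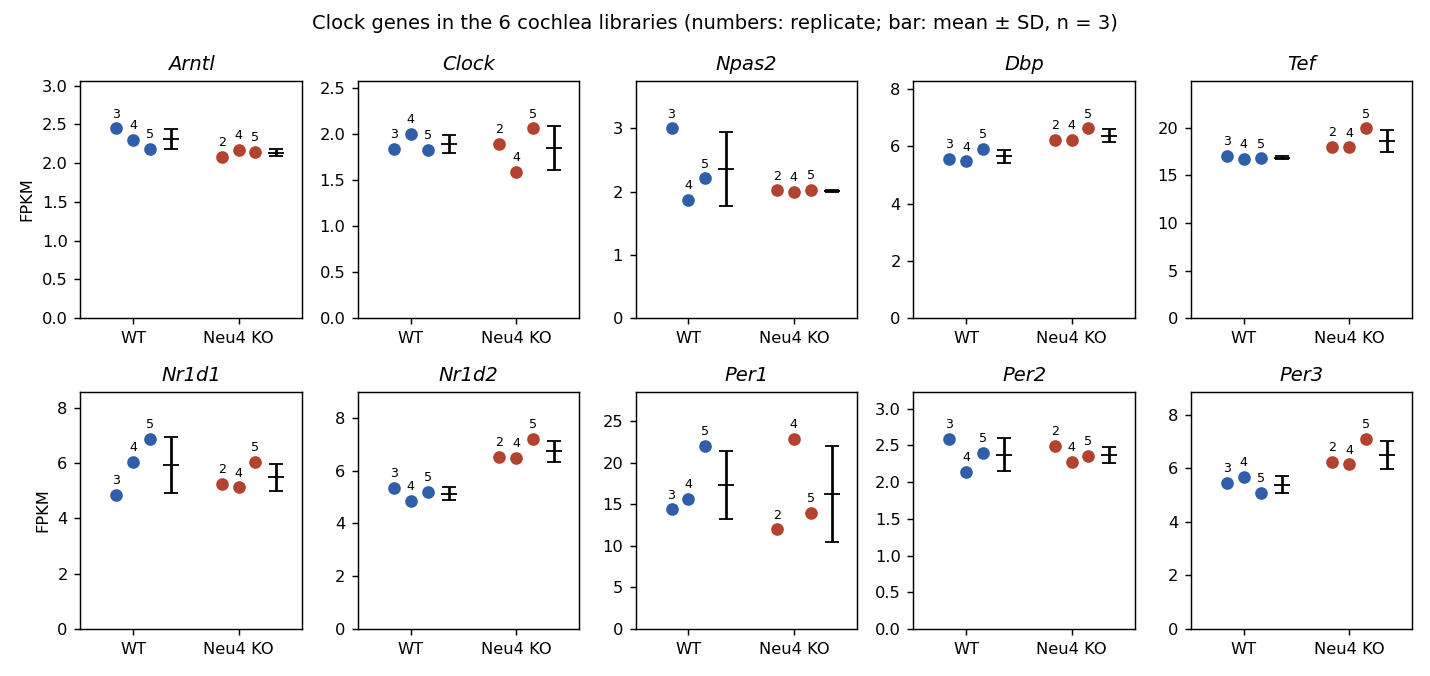
FPKM (vertical axes, from 0) of each of the 10 clock genes in the wild type (blue) and knockout (red) libraries; numbers are replicates and bars beside the points the mean ± SD (n = 3). Dbp, Tef, Nr1d2 and Per3 lie higher in all 3 knockout libraries than in any wild type library, Arntl lower, and Per1 has 1 high library in each group.

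In wild type, the order of mean levels, which FPKM gives per length, ran from Per1 (17.4) and Tef (16.9) through Nr1d1 (5.93), Dbp (5.65), Per3 (5.39) and Nr1d2 (5.13) to Per2 (2.38), Npas2 (2.36), Arntl (2.31) and Clock (1.89 FPKM). Neighbours within the first pair and within the middle group of 4 overlapped in their ranges, as did Per2, Npas2 and Arntl. Of neighbours in this order, the ranges were apart between Tef and Nr1d1, between Nr1d2 and Per2, and between Arntl and Clock. Clock (1.82 to 2.00 FPKM) still overlapped Npas2 (1.87 to 3.00). In the knockout libraries the ranges of the first pair, the middle group and the lowest 4 genes were also apart. Mean FPKM there was 16.3 for Per1 and 18.6 for Tef, 5.49 to 6.72 for the middle group and 1.85 to 2.37 for the lowest 4 genes.

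The activators of the loop were low and close between the groups. Arntl (ENSMUSG00000055116, chromosome 7, 113207465 to 113314126, plus strand, GRCm38) had 2.08, 2.17 and 2.15 FPKM in knockouts 2, 4 and 5, against 2.45, 2.30 and 2.19 in the wild type libraries 3, 4 and 5. Each knockout value was below each wild type value, with knockout 4 and wild type 5 nearly level, on 245 to 304 fragments per library. The log2 fold change was -0.08 (SE 0.071, adjusted p = 0.599, limma), and the counting error of such fragment numbers, a coefficient of variation of 6.04%, is about as large as the 5.66% between the wild type libraries.

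Npas2 (chromosome 1, 39193731 to 39363236) had 2.02, 2.00 and 2.02 FPKM in knockouts 2, 4 and 5, against 3.00, 1.87 and 2.21 in the wild type libraries 3, 4 and 5. Wild type 3 stood above all other libraries, and the groups overlapped. The log2 fold change of -0.14 (SE 0.124, adjusted p = 0.586, limma) was -0.01 without wild type 3 and -0.25 without wild type 4. Clock (chromosome 5, 76209868 to 76304792) had 1.89, 1.59 and 2.06 FPKM in knockouts 2, 4 and 5, against 1.84, 2.00 and 1.82 in the wild type libraries 3, 4 and 5. These overlapped, with knockout 4 the lowest of the 6 (log2 -0.02, SE 0.091, adjusted p = 0.914, limma), and the sign turned without knockout 4 (0.043) or wild type 4 (0.0044).

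Nr1d2 had the lowest p of the 10 genes, while its paralog Nr1d1 showed no such difference. Nr1d2 (ENSMUSG00000021775, chromosome 14, 18204054 to 18239127, minus strand) had 6.51, 6.47 and 7.19 FPKM in knockouts 2, 4 and 5, against 5.33, 4.85 and 5.21 in the wild type libraries 3, 4 and 5. All 3 knockout libraries were above all 3 wild type ones, on 450 to 592 fragments each. The means were 6.72 ± 0.405 and 5.13 ± 0.249 FPKM (SD, n = 3), a ratio of 1.31, and the log2 fold change was 0.33 (SE 0.063, 95% interval 0.19 to 0.48, adjusted p = 0.0924, limma). Over the alternatives it was 0.29 to 0.39, with adjusted p of 0.0298 to 0.280.

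Nr1d1 (ENSMUSG00000020889, chromosome 11, 98767932 to 98775333, minus strand) had 5.27, 5.13 and 6.06 FPKM in knockouts 2, 4 and 5, against 4.86, 6.05 and 6.87 in the wild type libraries 3, 4 and 5. The groups overlapped, and wild type held both the lowest and the highest value (log2 -0.09, SE 0.114, 95% interval -0.36 to 0.18, adjusted p = 0.728, limma). Without wild type 5 the log2 fold change was 0.0099. Nr1d1 overlaps the thyroid hormone receptor gene Thra on the opposite strand, and Dbp likewise overlaps Sphk2; no source used here says whether counting took strand into account. The ratio of Nr1d2 to Nr1d1 within a library was 1.24, 1.26 and 1.19 in the knockout libraries (2, 4 and 5), against 1.10, 0.802 and 0.757 in wild type (3, 4 and 5). These did not overlap, and the difference between the paralogs was not tested.

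**Figure D2:**
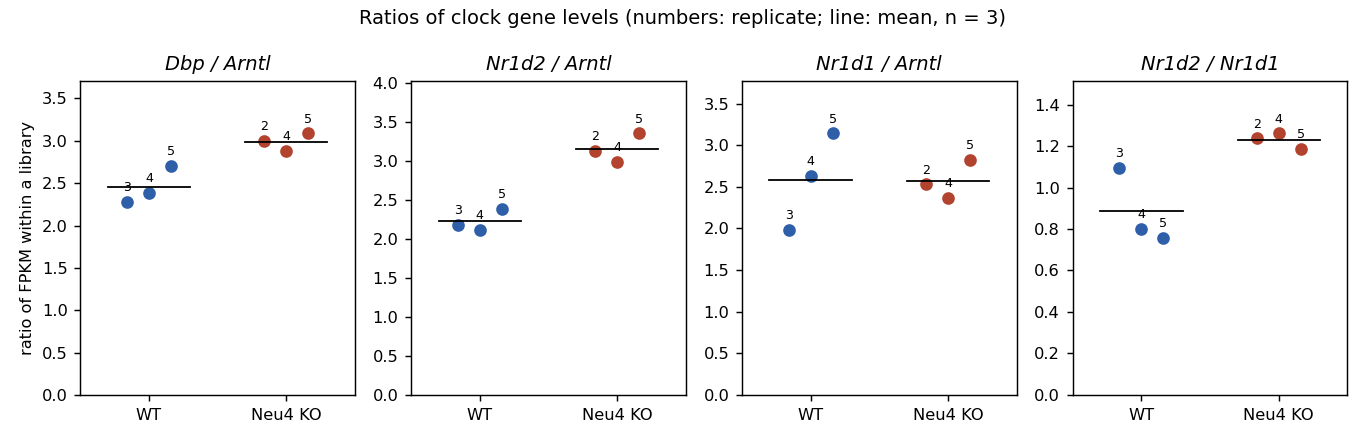
Ratios of the FPKM of 2 clock genes within each library (vertical axes, from 0), wild type in blue and knockout in red, with replicate numbers and the mean of 3 as a line. Dbp over Arntl, Nr1d2 over Arntl and Nr1d2 over Nr1d1 are higher in all 3 knockout libraries, while Nr1d1 over Arntl overlaps (2.57 and 2.59 on average). For Dbp and Nr1d2 over Arntl this follows from the levels of the single genes.

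The ratios to Arntl set outputs of the loop against the activator within each library. Dbp over Arntl was 2.995, 2.88 and 3.09 in the knockout libraries (2, 4 and 5), against 2.27, 2.39 and 2.70 in wild type (3, 4 and 5). Nr1d2 over Arntl was 3.13, 2.98 and 3.35 against 2.18, 2.11 and 2.38 in the same order. Nr1d1 over Arntl, a pair known for a large daily swing, was 2.53, 2.37 and 2.82 against 1.99, 2.63 and 3.14. The first 2 ratios could not overlap between the groups, since Dbp and Nr1d2 were higher and Arntl lower in each knockout library. They restate those differences and add no separate result. Nr1d1 over Arntl did overlap, with the lowest and highest values both in wild type. Since the hour of collection is not given, its part in these differences was not tested.

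The PAR bZIP activators Dbp and Tef were slightly higher in all 3 knockout libraries. Dbp (ENSMUSG00000059824, chromosome 7, 45705088 to 45710203, plus strand) had 6.24, 6.24 and 6.63 FPKM in knockouts 2, 4 and 5, against 5.57, 5.48 and 5.92 in the wild type libraries 3, 4 and 5. This is a ratio of means of 1.13 (log2 0.15, SE 0.055, adjusted p = 0.239, limma) on 275 to 316 fragments per library. Tef (ENSMUSG00000022389, chromosome 15, 81802421 to 81826863, plus strand) had 18.0, 17.9 and 19.9 FPKM in knockouts 2, 4 and 5, against 17.1, 16.8 and 16.8 in the wild type libraries 3, 4 and 5. The ratio of means was 1.10 (log2 0.13, SE 0.051, adjusted p = 0.246, limma) on 2110 to 2389 fragments, the most of the 10 genes. A predicted antisense gene, Gm17597, overlaps the start of Tef. The log2 fold changes of Dbp, Tef, Nr1d2 and Per3 kept their sign in all 19 alternatives, and that of Arntl in all 18 in which it was tested. For genes without overlap, leaving out a library or changing the pseudocount cannot turn the sign, and the filters and eBayes settings leave the fold change as it is. Npas2, whose groups overlapped, also kept its sign in all 18, so these counts say little about stability.

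Hlf, the remaining PAR bZIP gene, had 8.12 ± 0.340 against 6.60 ± 0.431 FPKM (n = 3), again with no overlap (log2 0.26, SE 0.061, adjusted p = 0.124, limma, and 0.0463 with voom). Nfil3, the D-box repressor, had 5.07 ± 0.626 against 5.87 ± 0.823 FPKM with overlap (log2 -0.18, SE 0.110, adjusted p = 0.444, limma). The ratio of Dbp to Nfil3 was 1.43, 1.16 and 1.21 in the knockout libraries (2, 4 and 5), against 0.824, 0.954 and 1.15 in wild type (3, 4 and 5), with knockout 4 and wild type 5 nearly level.

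The 3 Period genes, which encode the partners of the cryptochromes in repression, differed in pattern. Per3 (ENSMUSG00000028957, chromosome 4, 151003652 to 151044665, minus strand) had 6.22, 6.14 and 7.09 FPKM in knockouts 2, 4 and 5, against 5.44, 5.67 and 5.07 in the wild type libraries 3, 4 and 5. The groups did not overlap, with a ratio of means of 1.203 (log2 0.23, SE 0.070, adjusted p = 0.178, limma, and 0.0828 with voom). Per3 lies within the span of Camta1, a longer gene on the same strand.

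Per2 (ENSMUSG00000055866, chromosome 1, 91415982 to 91459324, minus strand) had 2.49, 2.28 and 2.35 FPKM in knockouts 2, 4 and 5, against 2.59, 2.14 and 2.40 in the wild type libraries 3, 4 and 5. The means were 2.37 ± 0.107 and 2.38 ± 0.227 FPKM (SD, n = 3), and the log2 fold change was 0.0014 (95% interval -0.19 to 0.19, adjusted p = 0.994, limma). Its sign turned with median-ratio and with quantile scaling, which centre all genes nearer 0. Per2 lies on the same chromosome as Neu4 with 2561127 bases between them.

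Per1 had the widest range over the 6 libraries of any of the 10 genes. Per1 (ENSMUSG00000020893, chromosome 11, 69095217 to 69109960, plus strand) had 12.0, 22.9 and 14.0 FPKM in knockouts 2, 4 and 5, against 14.4, 15.7 and 22.1 in the wild type libraries 3, 4 and 5. Knockout 4 and wild type 5 were high and the other 4 libraries lay between 12.0 and 15.7. On 1124 to 2178 fragments, counting error gives a coefficient of variation of 2.53%, against 35.5% between the knockout and 23.6% between the wild type libraries. The highest over the lowest library was 1.91, a ratio larger than in 90.1% of tested genes, whose median was 1.26. The log2 fold change was -0.12 (SE 0.240, adjusted p = 0.836, limma), and it turned to 0.06 without knockout 2 or without wild type 5.

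The pair of libraries high in Per1 was also the highest for 4 of the 56 tested genes of the other clock and clock input lists (7.14%, beside 4.79% of all tested genes). These were Usp2, an output of the clock in many tissues, and Fbxw11, a ubiquitin ligase gene. The others were Tsc22d3, listed both as a clock output and as a glucocorticoid target, and Ddit4, a stress gene induced by glucocorticoids. On the glucocorticoid list, 2 of 11 tested genes (18.2%) had this pair highest, Tsc22d3 and Ddit4. A share resting on 2 genes says little, and the 7.14% over the lists together is near that of all tested genes. Usp2 had 3.58 FPKM in knockout 4 and 3.65 in wild type 5 and 2.63 to 2.98 in the other libraries. Ddit4 had 55.5 and 51.9 FPKM in these libraries and 35.2 to 42.9 in the others. Fkbp5, a standard glucocorticoid target, had 2.51 ± 0.178 in knockout and 2.52 ± 0.159 in wild type, and it was not high in either library. Knockout 4 and wild type 5 were also the libraries with the lowest and the highest summed muscle markers, and both were female, as was knockout 5, which was low in Per1; the part of these in Per1 was not tested.

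**Figure D3:**
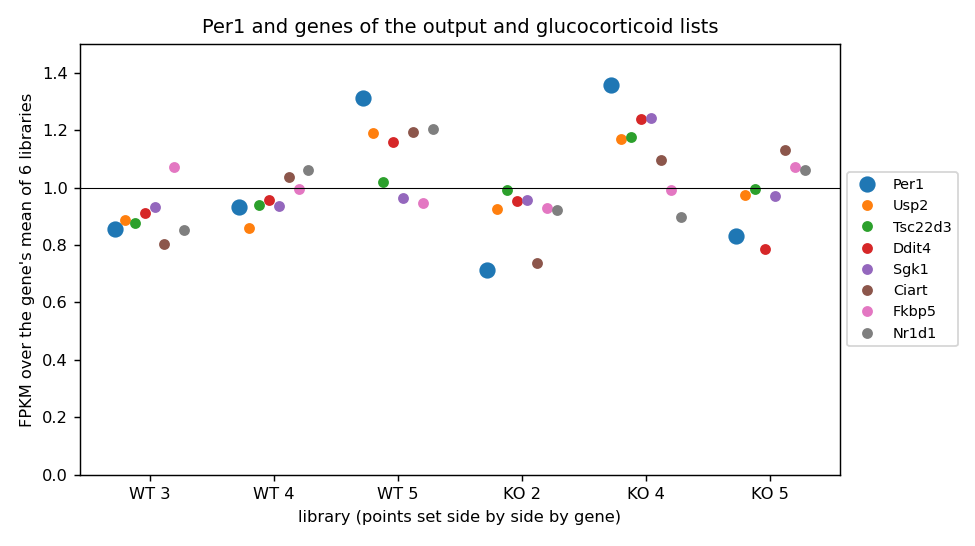
Level of Per1 (large points) and 7 other genes in each library, as FPKM over the gene's own mean of the 6 libraries (vertical axis, from 0). Per1, Usp2 and Ddit4 are highest in wild type 5 and knockout 4, while Nr1d1 is high in wild type 5 and low in knockout 4 and Fkbp5 is below its mean in both.

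The promoter windows of the clock genes show which elements of the loop stand next to these starts. RefSeq windows of 250 bases before to 50 after a start (GRCm38.p6) were matched for 9 of the 10 genes, giving 14 windows, and for Per2 none was matched. They were searched on both strands for the E-box CACGTG, the variant CACGTT, the D-box TTATGTAA or TTACGTAA, the cyclic AMP element TGACGTCA, and the RORE by its consensus. No matches in the windows of the 9 genes overlapped. Per3 was the 1 gene of the 9 searched with a D-box, and it held 2 of them, at positions -205 and -158 from the start; 1.06% of all 32851 windows hold a D-box. The E-box was found in Per1 and in both Tef windows (7.15% of all windows), the variant in Nr1d1 (4.69% of all windows), the RORE in Arntl (0.384% of all windows) and the cyclic AMP element in none of the 9 (1.79% of all windows). Windows of Dbp, Nr1d2, Clock and Npas2 held none of these letters, which says nothing of elements elsewhere.

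The stretches shown are those with a match, printed 5′ to 3′ on the strand of the gene, as 240 bases from position -250 to -11, with the matched letters in capitals. For Arntl the match lies after the start and is shown with a few bases on each side. Per3 is at chr4:151044676-151044915 (minus strand), Tef before its second listed start at chr15:81811164-81811403 (plus), Per1 at chr11:69098699-69098938 (plus), Nr1d1 at chr11:98775388-98775627 (minus) and Arntl at chr7:113207528-113207556 (plus). The Per3 stretch lies in the Camta1 span, and those of Tef and Per1 lie inside their own annotated genes, which have earlier starts.
Per3, D-boxes: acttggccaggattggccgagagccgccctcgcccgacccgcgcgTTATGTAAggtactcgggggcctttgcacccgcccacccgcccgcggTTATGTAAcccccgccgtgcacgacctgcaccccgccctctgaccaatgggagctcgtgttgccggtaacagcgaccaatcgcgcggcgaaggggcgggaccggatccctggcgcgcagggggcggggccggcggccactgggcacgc
Tef, E-box: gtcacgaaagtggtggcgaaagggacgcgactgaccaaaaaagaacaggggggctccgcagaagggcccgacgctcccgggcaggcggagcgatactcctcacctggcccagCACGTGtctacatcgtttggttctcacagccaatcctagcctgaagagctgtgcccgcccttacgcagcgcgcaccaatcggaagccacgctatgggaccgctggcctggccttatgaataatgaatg
Per1, E-box: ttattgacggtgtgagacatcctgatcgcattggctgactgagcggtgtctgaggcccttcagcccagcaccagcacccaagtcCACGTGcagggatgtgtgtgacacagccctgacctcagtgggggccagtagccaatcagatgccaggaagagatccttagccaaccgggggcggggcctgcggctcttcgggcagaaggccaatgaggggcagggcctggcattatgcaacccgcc
Nr1d1, E-box variant: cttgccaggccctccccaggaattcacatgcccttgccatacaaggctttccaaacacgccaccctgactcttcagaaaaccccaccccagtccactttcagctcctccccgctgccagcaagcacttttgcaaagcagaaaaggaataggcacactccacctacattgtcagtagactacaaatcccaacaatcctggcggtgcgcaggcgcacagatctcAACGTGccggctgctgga
Arntl, RORE: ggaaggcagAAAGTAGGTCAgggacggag

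Beside the levels, Per3, with the D-boxes, was higher in all 3 knockout libraries. Timeless, a gene of the repressor list with a D-box (at -157), overlapped, with 5.04 ± 0.0985 against 5.33 ± 0.360 FPKM (log2 -0.07, adjusted p = 0.608, limma). Of the clock genes with an E-box or its variant, Tef was higher in all 3 knockout libraries and Per1 and Nr1d1 overlapped. Of the repressor list, Ciart, Cry1, Cry2 and Bhlhe41 had an E-box or the variant, and of these Bhlhe41 was higher in all 3 knockout libraries and the others overlapped. A match of letters is a description and shows no binding in these samples.

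**Figure D4:**
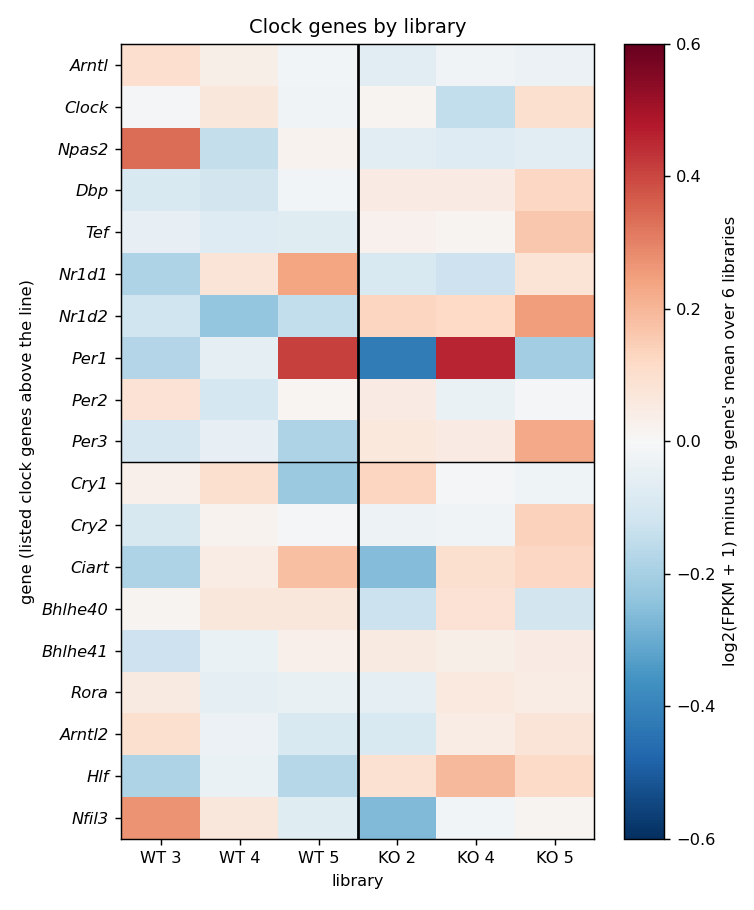
Level of each gene in each library (columns, wild type left of the line) as log2(FPKM + 1) minus the gene's mean over the 6 libraries, red above and blue below, for the 10 clock genes and 9 others of the loop. Dbp, Tef, Nr1d2, Per3 and Hlf are red in all knockout columns and blue in all wild type columns, and Per1 shows the largest deviations, in wild type 5, knockout 2 and knockout 4.

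Across the 6 libraries Dbp followed Nr1d2 (Pearson r of log2(FPKM + 1) 0.95), Tef (0.89) and Per3 (0.79), was opposite to Arntl (-0.80), and was near 0 with Nr1d1 (0.06), Per1 (-0.05), Per2 (0.09) and Clock (-0.02). These coefficients describe 6 libraries that fall into 2 groups and share their depth and scaling, so that a difference between the groups is enough to give them. Among 2195 other tested genes with a mean FPKM of at least 5 and a range of at least 0.3 on the log2 scale, those most like Dbp were Strap (0.99), Cpeb4 (0.98), Cdc27 (0.98), Marchf7 (0.97) and Rpl39-ps (0.97), a pseudogene whose reads could come from its parent gene. Those most like Arntl were Rhbdf2 (0.97), Acadvl (0.96), Erbb3 (0.96), Art3 (0.96) and Ccdc102a (0.95). Those most like Per1 were Cacng4 (0.99), Slc16a3 (0.97), Zfp385c (0.92), Tmem41a (0.91) and Nt5dc3 (0.90), none of them on the clock and clock input lists.

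Several genes had an extreme value in wild type 3, and those given here were chosen after their values were seen. It held the highest level of Arntl, Npas2, Per2 (2.59 FPKM, the others 2.14 to 2.49) and Nfil3 (6.76 FPKM, the others 4.35 to 5.74). The lowest level of Nr1d1 was also there (4.86, the others 5.13 to 6.87). How many of all tested genes had an extreme in this library was not counted. Clock (1.84 FPKM) and Cry1 (7.13) were within the range of the other libraries there, and Nr1d2 (5.33) was the highest of wild type. Ciart, an E-box target that represses the loop, was at 1.47 FPKM in wild type 3 and 1.35 in knockout 2, and at 1.90 to 2.19 in the other 4 libraries. Spread of this kind within the wild type group was as large as the differences between the groups for Nr1d1, Npas2 and Ciart. Whether the libraries were collected at different hours was not tested.

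The other genes of the loop gave 0 calls by limma. Of the 6 further repressors (Cry1, Cry2, Ciart, Bhlhe40, Bhlhe41 and Timeless) none had an unadjusted p under 0.05, and their median log2 fold change was 0.02. The cryptochrome genes, whose proteins are the main repressors of the ARNTL pairs, were at 7.13 ± 0.5002 against 6.82 ± 0.881 FPKM (Cry1) and 8.23 ± 0.616 against 7.86 ± 0.364 (Cry2). Bhlhe40, an E-box competitor, had 16.7 ± 1.49 against 18.0 ± 0.389 FPKM. Rora, whose product activates through the RORE, had 1.30 ± 0.0993 against 1.26 ± 0.0956 FPKM, and Arntl2, a relative of Arntl, 1.503 ± 0.154 against 1.47 ± 0.165, both with overlap.

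The kinases and ubiquitin ligases that set the lifetime of PER and CRY proteins included 3 genes at an unadjusted p under 0.05 of the 8 tested, all higher in knockout, beside 10.6% of all tested genes higher at that threshold, with a list median log2 of 0.11. Among them Gsk3b, a kinase gene, had 11.5 ± 0.633 against 9.62 ± 0.384 FPKM (log2 0.24, SE 0.057, adjusted p = 0.128, limma), and Csnk1a1 had 31.1 ± 0.553 against 27.8 ± 0.343. Gsk3b was called with voom (adjusted p = 0.0433). Csnk1d, a casein kinase that phosphorylates PER proteins, had 41.2 ± 1.07 against 41.0 ± 0.648 FPKM, and Csnk1e 13.5 ± 0.411 against 14.1 ± 0.961. Gsk3b was chosen for mention after its values were seen.

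**Figure D5:**
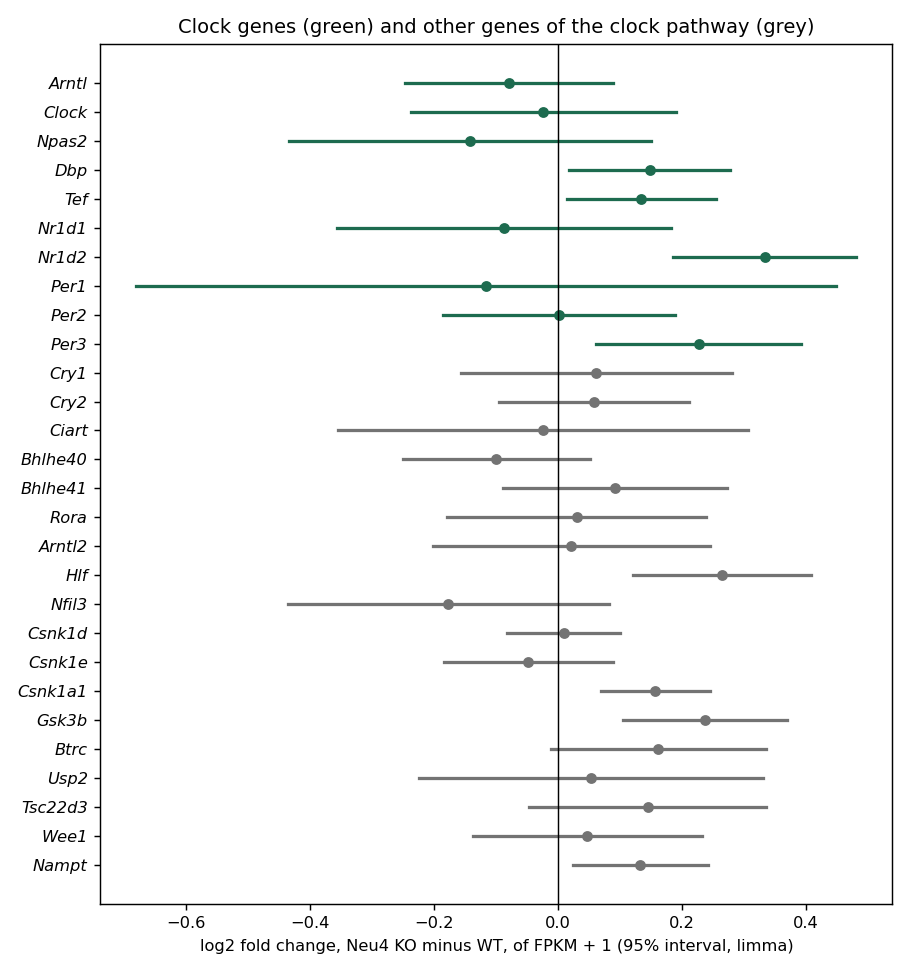
Log2 fold change of FPKM + 1, knockout minus wild type (horizontal axis), with the 95% interval from limma, for the 10 clock genes (green) and 18 other genes of the pathway (grey). Before adjustment over all genes, the intervals of Dbp, Tef, Nr1d2 and Per3 lie above 0. So do those of Hlf, Gsk3b, Csnk1a1 and Nampt among the grey genes. The interval of Per1 is the widest (-0.68 to 0.45), and that of Per2 is centred at 0.

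Clock output genes, and genes of signals known to reset peripheral clocks, were examined as lists. Of the clock output genes, 1 of 6 tested, Nampt, had an unadjusted p under 0.05 (7.71 ± 0.111 against 6.95 ± 0.118 FPKM, adjusted p = 0.215, limma). Of the 11 glucocorticoid targets tested, 3 did, Klf9, Lcn2 and Zbtb16, all higher in knockout, beside 17.6% of all tested genes in either direction and 10.6% higher for both lists. Klf9, itself a rhythmic transcription factor gene, had 12.3 ± 0.819 against 9.74 ± 0.116 FPKM (log2 0.30, SE 0.056, adjusted p = 0.0877, limma, and 0.0295 with voom). Fkbp5 and Sgk1 overlapped between the groups. Lcn2, at 3.26 ± 0.840 against 1.38 ± 0.399 FPKM, is also a granule gene of neutrophils. The 9 blood and marrow markers summed to 333 to 515 against 369 to 541 FPKM, with overlap.

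The temperature list held genes in both directions. Cirbp and Rbm3, RNA-binding protein genes that rise at low body temperature, were higher in all 3 knockout libraries, at 52.1 ± 4.18 against 40.9 ± 3.67 and 39.1 ± 1.13 against 35.3 ± 2.36 FPKM. The chaperone genes Hsph1, Hspa8, Dnajb1 and Hspe1, which heat shock factor induces, were lower in all 3. Hsph1 had 5.90 ± 0.290 against 7.64 ± 0.767 FPKM (log2 -0.32, SE 0.075, adjusted p = 0.126, limma). All 6 had an unadjusted p under 0.05, of 9 tested (2 higher and 4 lower, beside 10.6% and 6.99% of all tested genes), and 0 passed adjustment by limma. With voom Cirbp and Hsph1 were called (adjusted p = 0.0401 and 0.0370). The list median log2 was -0.14, and Hsp90aa1 (59.3 ± 1.52 against 58.2 ± 0.906) and Hspd1 overlapped.

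Of the immediate early genes, which respond within minutes to stimulation and handling and some of which share inducers with Per1, 5 of 12 tested had an unadjusted p under 0.05, all lower in knockout, beside 6.99% of all tested genes lower. Jun had 18.8 ± 0.766 against 24.2 ± 1.34 FPKM (log2 -0.34, SE 0.054, adjusted p = 0.0677, limma), and it passed with genes of FPKM 5 or more (0.0352), with library weights (0.0428), with protein-coding genes alone (0.0448) and with voom (0.0179). Egr1 had 38.7 ± 2.43 against 47.4 ± 4.81 FPKM, and Ier2, Nr4a1 and Dusp1 were lower too, while Fos had 19.6 ± 4.63 against 17.2 ± 1.34 with overlap. Per1 had another pattern, with knockout 4 as its highest library.

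Some marker lists also differed between the groups. The summed levels were higher in all 3 knockout libraries for hair cell genes (27.7 to 29.8 against 24.6 to 26.4 FPKM), supporting cell genes (252.3 to 285 against 240.1 to 251.9), osteoblast genes (3852 to 4947 against 3542 to 3820), strial genes (108 to 113 against 93.4 to 94.7) and spiral ligament genes (515 to 567 against 431 to 459), and lower for middle ear epithelium, as given above. Adipocyte genes summed to 23.3 to 34.5 against 30.3 to 52.5 FPKM with overlap. Sums also overlapped for spiral ganglion neuron (155 to 202 against 122 to 176), Schwann cell (1030 to 1201 against 908 to 1623) and brain genes (11.5 to 12.3 against 8.89 to 12.9). Those of skeletal muscle and of blood and marrow, given above, overlapped too. Of single tested genes, 24.8% did not overlap between the groups. The part of tissue composition in the differences of Nr1d2, Per3, Dbp, Tef and Arntl was not tested.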

How the data were processed

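RNA of 6 mouse cochlea samples was sequenced, 3 labelled NEU4 KO and 3 WT. The authors deposited 1 table of FPKM values with 1 column per sample and each gene's identifier, symbol and position. The submitters' processing notes name the build GRCm38; no aligner, counting tool or strand setting is stated in the sources used. Fragments were recovered by dividing FPKM times exon length (GENCODE M21) by the value of 1 fragment in that library, which left 98.1% to 98.2% of values whole to 0.01 fragment plus a relative 1e-06.

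Of each gene, 1 FPKM or more was required in 3 or more libraries. The test was limma on log2(FPKM + 1), which understates changes of low genes (lmFit, eBayes with trend, two-sided, Benjamini-Hochberg, threshold 0.05). It was tried on simulated data, but only with changes larger than those of the clock genes between the groups. Recovery of changes as small as theirs was not tested. The clock genes and all lists were chosen with earlier results of these data known. Named were the 10 genes, up to 4 genes per list (called, or else most abundant) and the 5 most like Dbp and Arntl. Further genes (such as Usp2, Klf9, Gsk3b, Hsph1, Lcn2, Dusp1), the Per1 pattern and the 5 most like Per1 were chosen after their values were seen. Mt2 was not analysed here, and some list genes, though counted, are not reported by name. The 19 alternatives varied pseudocount, filter, scaling, eBayes settings, library weights, sex, replicate block, gene set, voom on fragments and the libraries kept. Counting errors cover counting only. R 4.3.3 with limma 3.58.1 was used, and Python 3.11.15 drew the figures.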

Additional observations from a re-analysis of the deposited data

How the results depend on the processing

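Of the 10 clock genes, 0 were called by limma in 18 of the 19 alternatives, leaving out any library included (0 to 0), and 1, Nr1d2, was called with voom on recovered fragments. Of the pathway list genes 0 were called by limma, 1 (Jun) when 5 FPKM was required, 1 with library weights, 1 with protein-coding genes only, 8 with voom, and 0 to 0 when a library was left out. Over all genes the 47 calls became 19 with no filter on low values, 103 when 5 FPKM was required, 19 with eBayes without trend, 104 with library weights, 24 with a sex covariate, 381 with voom and 12 to 105 when 1 library was left out. Requiring 5 FPKM left Arntl, Clock, Npas2 and Per2 untested.

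Some log2 fold changes near 0 turned sign. Per2 went to -0.016 with median-ratio scaling and -0.032 with quantile normalization. When 1 library was left out, Per2 ran from -0.051 (without wild type 4) to 0.046, Per1 from -0.37 to 0.065 (without knockout 2; 0.059 without wild type 5), Clock from -0.078 to 0.043 (without knockout 4; 0.0044 without wild type 4) and Nr1d1 from -0.20 to 0.0099 (without wild type 5). The cause of these moves was not tested.

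Replicate numbers 4 and 5 occur in both groups, and the deviations of same-numbered libraries correlated at 0.14 and 0.15, but nothing in the labels says that a number marks a shared litter or day. With the replicate block 22 genes were called over all genes, and 0 of the clock genes. Clock genes below 3 FPKM rest on 147 to 473 fragments per library, which limits what their differences can show.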
